A study of Mus musculus with 8 samples.

Results

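Genes of lipid synthesis, lipid uptake and surfactant lipid were followed in the lungs of ozone-exposed mice. The set was a list of 47 named genes: the enzymes of cholesterol and fatty acid synthesis, their regulators, proteins that take up, bind and store fatty acids, proteins of cholesterol efflux, and enzymes of surfactant lipid. A probe set, the group of array probes that reads 1 transcript, was taken for a member where the array annotation named that gene and no other. This gave 60 of the 12422 probe sets without controls, for 41 of the 47 genes and of the 8251 genes so named on the array. Acat2, Srebf2, Acaca, Fads2, Acsl1 and Abca3 were not analysed here. The rule itself uses no measured value, but the members were chosen with earlier results of these data known.

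RNA of whole mouse lung, frozen in liquid nitrogen, had been read on 8 oligonucleotide arrays under a title that concerns ozone and leaky airways. C3H/HeJ and C3H/HeOuJ are closely related substrains of C3H: as background, C3H/HeJ carries a loss-of-function mutation of Tlr4, the endotoxin receptor, and C3H/HeOuJ the intact gene. Each substrain had breathed filtered air or ozone, which made 4 groups (HeJ air, HeJ ozone, HeOuJ air and HeOuJ ozone from here on) of 2 arrays, named 1a and 1b. The labels give 72 h of exposure for C3H/HeOuJ only; they give no ozone dose, age or sex, and do not say whether an array holds 1 animal or a pool. Nothing shows that the arrays of a group are separate animals, so the p-values rest on array-to-array spread that may be technical. Array pairs below are in the order 1a, 1b, and an intensity is the deposited scaled signal on a linear scale.

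The arrays were alike in median intensity (351 to 386) and in the share of probe sets under the floor of 69.6 below which signals were not told apart (17.7% to 21.1%). The HeOuJ ozone arrays stood apart. Their 5' to 3' signal ratio of the actin control, a reading of RNA integrity, was 0.766 and 0.756, against 0.432 to 0.603 on the other 6 arrays. On the first principal component of all probe sets, with 30.7% of the variance, they scored 53.2 and 19.3, and the other arrays at most 0.54. The rank correlation of replicate arrays was 0.931 in HeOuJ ozone and 0.952 to 0.961 elsewhere. Sftpc, a surfactant protein of alveolar type 2 cells, read 39537 or more on every array. Not all lung markers were bright: Sftpd, another surfactant protein, read 98.1 to 328. The arrays hold whole lung, so fewer cells of a type and less RNA per cell cannot be told apart.

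Cells make cholesterol and fatty acids from acetyl-CoA by enzymes that SREBP transcription factors switch on when membrane sterol is low. Alveolar type 2 cells use much of their fatty acid for surfactant, a film rich in phosphatidylcholine that lowers surface tension in the alveolus. Alveolar macrophages take up used surfactant, store its fatty acids as droplets and pass its cholesterol out through transporters. PPAR nuclear receptors, which fatty acids activate, regulate many genes of uptake and storage.

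Promoters are shown for Fabp1 and Plin2, the members past the threshold in the tests that follow, and for Hmgcs1. Hmgcs1 is an early enzyme of the sterol pathway and, like Pcyt1a, holds the sterol motif. Each sequence is the 250 bases before the gene's start in RefSeq on GRCm38.p6, 5' to 3' on the gene's strand. Capitals in Fabp1 and Plin2 mark AGGTCA read on the opposite strand (TGACCT), the half-site of many nuclear receptors. Capitals in Hmgcs1 mark TCACCCCAC, the core of the sterol regulatory element. A match is a run of letters and not a shown binding site. The windows are chr6:71199629-71199878 on the plus strand for Fabp1, chr4:86670060-86670309 on the minus strand for Plin2 and chr13:119690101-119690350 on the plus strand for Hmgcs1.
Fabp1: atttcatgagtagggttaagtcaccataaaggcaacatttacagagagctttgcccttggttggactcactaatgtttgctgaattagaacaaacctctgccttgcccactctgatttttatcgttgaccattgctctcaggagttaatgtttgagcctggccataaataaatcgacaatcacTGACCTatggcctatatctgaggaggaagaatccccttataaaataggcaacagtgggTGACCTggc
Plin2: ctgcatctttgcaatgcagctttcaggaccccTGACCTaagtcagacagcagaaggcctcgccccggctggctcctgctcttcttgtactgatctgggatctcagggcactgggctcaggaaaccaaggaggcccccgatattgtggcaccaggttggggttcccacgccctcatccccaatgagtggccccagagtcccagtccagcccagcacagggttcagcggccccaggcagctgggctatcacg
Hmgcs1: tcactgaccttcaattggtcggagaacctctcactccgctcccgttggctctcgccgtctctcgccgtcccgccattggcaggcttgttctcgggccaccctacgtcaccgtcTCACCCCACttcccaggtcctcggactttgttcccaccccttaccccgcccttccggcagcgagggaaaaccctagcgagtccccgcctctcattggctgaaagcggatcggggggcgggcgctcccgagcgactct

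Fabp1 held 2 half-sites, 67 to 62 and 9 to 4 bases before the start, and Plin2 held 1, 218 to 213 bases before it. The sterol core of Hmgcs1 lay 137 to 129 bases before the start, apart from an AGGTCA match of the same window left in lower case. Both motifs were searched on both strands of the 250 bases before each start. RefSeq windows were given for 29 of the 39 members that could be tested. AGGTCA stood in a window of 9 of these 29 members (31.0%): Acly, Cd36, Dhcr7, Elovl1, Elovl6, Fabp1, Hmgcs1, Plin2 and Pparg. Of all 27025 genes with a window, 15.8% held it, and of all 32851 windows 14.0%. TCACCCCAC stood in 2 of the 29 (6.9%), Hmgcs1 and Pcyt1a, against 0.555% of all genes and 0.496% of all windows. These shares describe the letters, and no test was made of them.

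Of the 41 genes, 39 with 56 probe sets cleared the floor on 2 or more of the 8 arrays and entered the test, among 10953 probe sets in all. Insig1, which retains the SREBP activator in the endoplasmic reticulum, was above the floor on 1 array (112 in HeOuJ ozone 1a). Hsd17b7, an enzyme of late cholesterol synthesis, was above it on 1 array (127 in HeOuJ air 1b). Extra dim probe sets of Apoe and Cd36 were left out too. Differences are given on the log2 scale from 1 limma model of the 4 groups, ozone minus air or C3H/HeOuJ minus C3H/HeJ, with p adjusted by Benjamini-Hochberg over all 10953 probe sets and a threshold of 0.05. The interaction is the ozone difference in C3H/HeOuJ minus that in C3H/HeJ. The median standard error of a difference between 2 arrays and 2 arrays was 0.30 over all probe sets. Comparisons that share a group are not independent: HeOuJ ozone enters the ozone difference in C3H/HeOuJ, the strain difference in ozone and the interaction.

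Of the lipid genes, 2 passed the threshold for a difference between strains and none for a difference with ozone. In ozone, Fabp1 and Plin2 were higher in C3H/HeOuJ than in C3H/HeJ lungs, by 3.71-fold and 2.04-fold. They were 2 of 56 member probe sets, where 0.977% of all probe sets passed in either direction and 0.347% passed as higher. Since the members were chosen with earlier results of these data known, these shares are not an independent comparison. Averaged over air and ozone, Fabp1 passed alone, 3.34-fold higher in C3H/HeOuJ, where 0.155% of all probe sets passed. In air, no member passed by limma (0 of 56, against 0.0456% of all probe sets), while 4 had an unadjusted p under 0.05 (7.14%, against 5.71% of all).

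No member passed for ozone in C3H/HeJ by limma (0 of 56; 0% of all probe sets passed), with 1 at an unadjusted p under 0.05 (1.79%, against 4.35% of all). None passed for ozone in C3H/HeOuJ (0 of 56, against 0.456% of all), with 7 at an unadjusted p under 0.05 (12.5%, against 15.5% of all). None passed in the interaction (0%, as for all probe sets), with 7 unadjusted (12.5%, against 11.4%). None passed for ozone averaged over the strains (0 of 56, against 0.0183% of all), with 2 unadjusted (3.57%, against 9.25%). With 1 probe set per gene, the brightest, the median ozone difference of the 39 genes was 0.01 in C3H/HeJ and 0.03 in C3H/HeOuJ. Over all 7629 genes the medians were 0.0025 and 0.02. In C3H/HeJ 21 of 39 genes were above 0, and in C3H/HeOuJ 20, where 51.2% and 52.1% of all probe sets were. The single genes ran from -0.51 to 0.44 in C3H/HeJ and from -0.89 to 1.15 in C3H/HeOuJ. In C3H/HeJ the 95% interval lay within a 2-fold change either way for 34 of the 39 genes, and in C3H/HeOuJ for 28. For the others a 2-fold difference was within the interval.

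**Figure D1:**
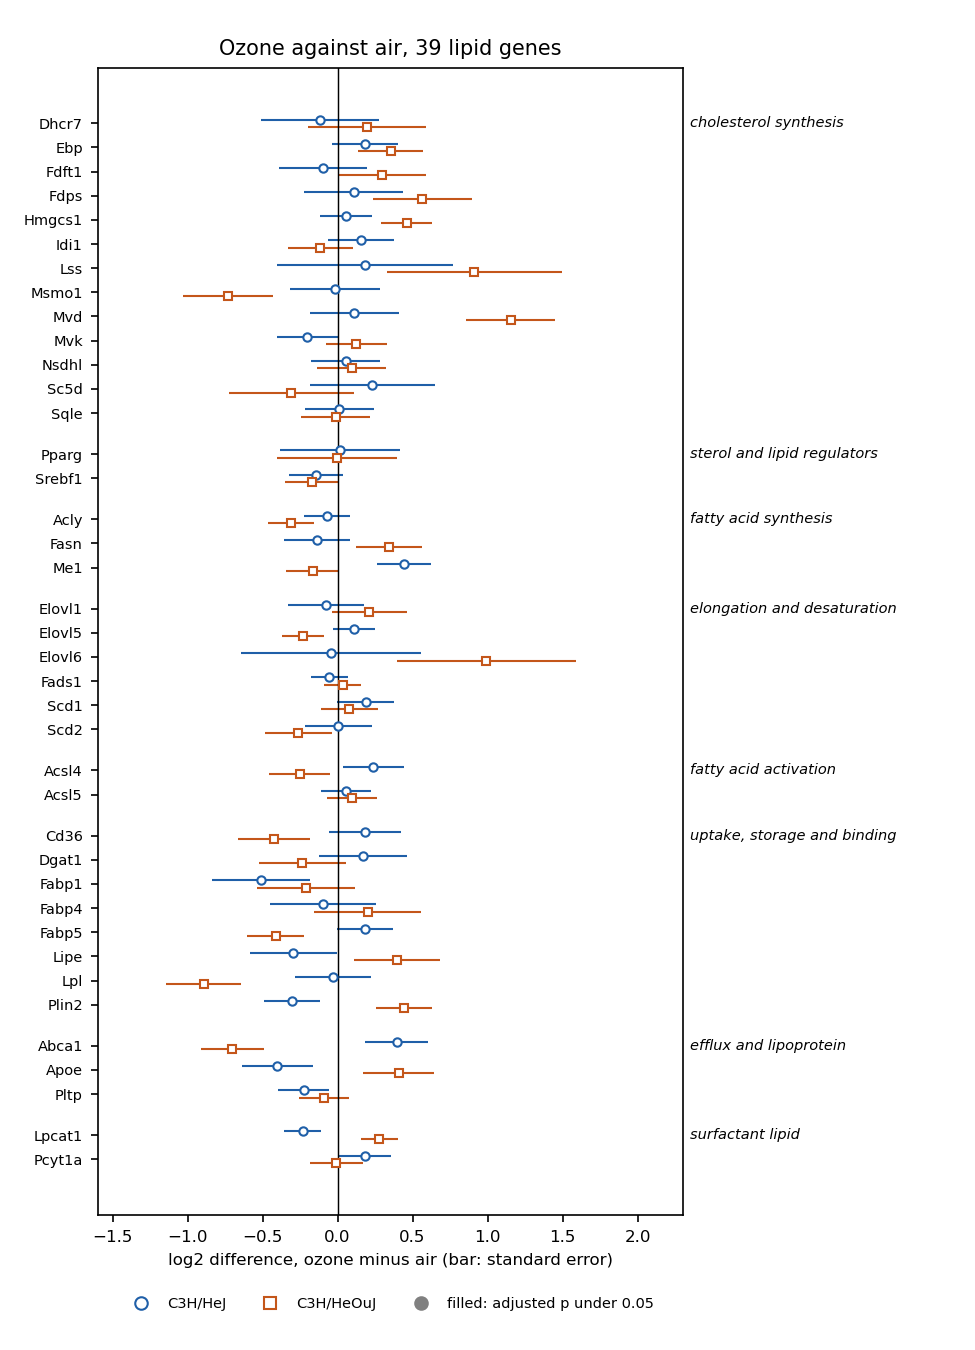
Log2 difference of ozone minus air for the 39 tested lipid genes (rows, by role), each from its brightest probe set, in C3H/HeJ (circles) and C3H/HeOuJ (squares); bars are standard errors of the limma model with 2 arrays per group. No symbol is filled, since none passed the threshold. Mvd at 1.15 is the highest value and Lpl at -0.89 the lowest, both in C3H/HeOuJ.

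Proteins that take up, bind and store fatty acids held both members that passed. Of the 8 genes of this role, all were tested; 6 were above 0 in the strain difference in air and 5 in ozone, with medians of 0.24 and 0.20. Fabp1 is the liver fatty acid binding protein, a cytosolic carrier that is also made by alveolar macrophages of the mouse. Fabp1 read 227 and 204 in HeJ air, 167 and 136 in HeJ ozone, 762 and 551 in HeOuJ air and 622 and 504 in HeOuJ ozone. All 4 C3H/HeOuJ arrays were above all 4 C3H/HeJ arrays, in air and in ozone alike. Such a split of the strains was seen in 3 of 56 member probe sets, those of Fabp1, Nsdhl and Pcyt1a, where 4.7% of all probe sets showed it in either direction.

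The Fabp1 strain difference was 1.59 (SE 0.33) in air (adjusted p = 0.307), 1.89 (SE 0.33) in ozone (adjusted p = 0.0483) and 1.74 (SE 0.23) averaged over exposures (adjusted p = 0.0322). The ozone differences were -0.51 (SE 0.33) in C3H/HeJ and -0.21 (SE 0.33) in C3H/HeOuJ, with an interaction of 0.30 (SE 0.46), and none of these passed. A second, dim probe set of Fabp1 read 106 and 87.8 in HeJ air, 37.5 and 146 in HeJ ozone, 103 and 60.4 in HeOuJ air and 74.9 and 107 in HeOuJ ozone. It did not separate the strains, with a mean strain difference of -0.18 (SE 0.30). The brighter probe set's difference kept its sign and size when any 1 of the 8 arrays was left out (1.74 to 2.04 in ozone, 1.62 to 1.86 averaged), but each of these 8 fits ended the call, with adjusted p of 0.0699 to 0.357 and 0.0798 to 0.312. With the actin 5' to 3' ratio as a covariate the difference in ozone was 1.73, with adjusted p = 1. Within groups this ratio differed most in HeJ air (0.498 and 0.432), so the covariate's slope rests mainly on that pair. Here and below, the covariate extends that slope to gaps between groups wider than any within a group. Such values cannot be read as corrected for RNA quality.

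Plin2 encodes perilipin 2, the coat protein of lipid droplets in cells other than fat cells. Plin2 read 3765 and 2859 in HeJ air, 3040.4 and 2332 in HeJ ozone, 4349.8 and 3671 in HeOuJ air and 5684 and 5200.2 in HeOuJ ozone. The HeOuJ ozone arrays were the highest and lay above every other array, whereas HeJ ozone overlapped HeJ air. The strain difference was 1.03 (SE 0.19) in ozone (adjusted p = 0.0494), 0.28 (SE 0.19) in air (adjusted p = 0.969) and 0.66 (SE 0.13) averaged (adjusted p = 0.12). The ozone difference was 0.44 (SE 0.19) in C3H/HeOuJ (adjusted p = 0.299) and -0.30 (SE 0.19) in C3H/HeJ, and their difference was 0.75 (SE 0.26) (adjusted p = 0.345). So the strain difference passed in ozone and not in air, and the test of the change between them did not pass. Leaving out any 1 of the 8 arrays gave 0.84 to 1.22 in ozone and ended the call each time, with adjusted p of 0.0764 to 0.357. With the actin ratio, which was highest in HeOuJ ozone, as a covariate the difference was 0.38, under the limit given for Fabp1.

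Markers of alveolar macrophages differed in direction between genes and comparisons. Of 10 markers on the array other than members, 9 were tested. In the strain difference in ozone 6 of the 9 were above 0, with a median of 0.45, and Mrc1, Itgax and Msr1 were below it. In air 5 of the 9 were above 0, with a median of 0.02. For ozone, 0 of the 9 were above 0 in C3H/HeJ (median -0.22) and 5 in C3H/HeOuJ (median 0.13). The summed intensity of the 10 markers was 39354 to 45084 in HeJ air, 34110 to 40391 in HeJ ozone, 42101 to 50970 in HeOuJ air and 50599 to 58656 in HeOuJ ozone. Without Lyz2, the brightest of them, the sum was 16986 to 20181 on the C3H/HeJ arrays and 21733 to 26023 on the C3H/HeOuJ arrays. Cd68, a lysosomal protein of macrophages, read 1104 and 1049 in HeJ air, 965 and 806 in HeJ ozone, 1481 and 1773 in HeOuJ air and 2405 and 1932 in HeOuJ ozone. Its strain difference passed in ozone at 1.29 (SE 0.18) (adjusted p = 0.0329) and averaged at 0.94 (SE 0.12) (adjusted p = 0.0322). Chil3, a secreted lectin of macrophages, was lower in ozone than in air in C3H/HeOuJ at -1.19 (SE 0.18) (adjusted p = 0.0464). Marco, a scavenger receptor of alveolar macrophages, was under the floor on every array. Of 7 hepatocyte markers, which Fabp1 would accompany in liver, 4 were tested, and the summed intensity of the 7 was 559 to 937 on the 8 arrays. The part of these markers in the differences of Fabp1 and Plin2 was not tested.

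Lpl, the lipoprotein lipase that frees fatty acids at the vessel wall, had the largest negative ozone difference of the members in C3H/HeOuJ. Its brighter probe set read 1059 and 1542 in HeJ air, 1414 and 1108 in HeJ ozone, 2526 and 1775 in HeOuJ air and 1006 and 1293 in HeOuJ ozone. HeOuJ air was highest, and HeOuJ ozone lay under it with no overlap. The ozone difference was -0.89 (SE 0.25) in C3H/HeOuJ (adjusted p = 0.155) and -0.03 (SE 0.25) in C3H/HeJ, with an interaction of -0.86 (SE 0.36) (adjusted p = 0.415). With the actin ratio as a covariate the C3H/HeOuJ value turned to 0.17. The other probe set read 359 and 983 in HeJ air, 287 and 483 in HeJ ozone, 228 and 997 in HeOuJ air and 305 and 333 in HeOuJ ozone, with a difference of -0.58 (SE 0.70) in C3H/HeOuJ; it ran the same way, with arrays of a group far apart.

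Cd36, a fatty acid and scavenger receptor, was higher in HeOuJ air than in HeJ air with no overlap: it read 575 and 769.6 in HeJ air, 810.5 and 704 in HeJ ozone, 1098 and 1101 in HeOuJ air and 993 and 675 in HeOuJ ozone. The strain difference in air was 0.73 (SE 0.24) (adjusted p = 0.753). In ozone the strains overlapped, at 0.12 (SE 0.24). Fabp5 and Lipe had interactions of -0.60 (SE 0.27) and 0.69 (SE 0.41); Fabp5 binds fatty acids in epithelium and macrophages, and Lipe, the hormone-sensitive lipase, releases them from stored fat. Fabp4, the fatty acid binding protein of fat cells and capillary endothelium, read between 221 and 353 on the 8 arrays, with differences of -0.10 (SE 0.36) and 0.20 (SE 0.36) for ozone in C3H/HeJ and C3H/HeOuJ. Dgat1, which makes triglyceride, had ozone differences of 0.17 and -0.23 from its brighter probe set. The summed intensity of 8 adipocyte markers was 1591 to 1606 in HeJ air and 2012 to 2784 over the other 3 groups, a gap that lay in Lep: without it the sum was 1002 to 1053 in HeJ air and 936 to 1288 elsewhere. For ozone, 3 of the 8 were above 0 in C3H/HeJ (median -0.04) and 5 in C3H/HeOuJ (median 0.08). Of 11 endothelial markers, 5 were above 0 for ozone in C3H/HeJ (median -0.02) and 3 in C3H/HeOuJ (median -0.21). In the strain difference in ozone 3 of the 11 were above 0, with a median of -0.43. The part of the adipocyte and endothelial markers in the values of Fabp4, Lipe, Lpl and Cd36 was not tested.

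**Figure D2:**
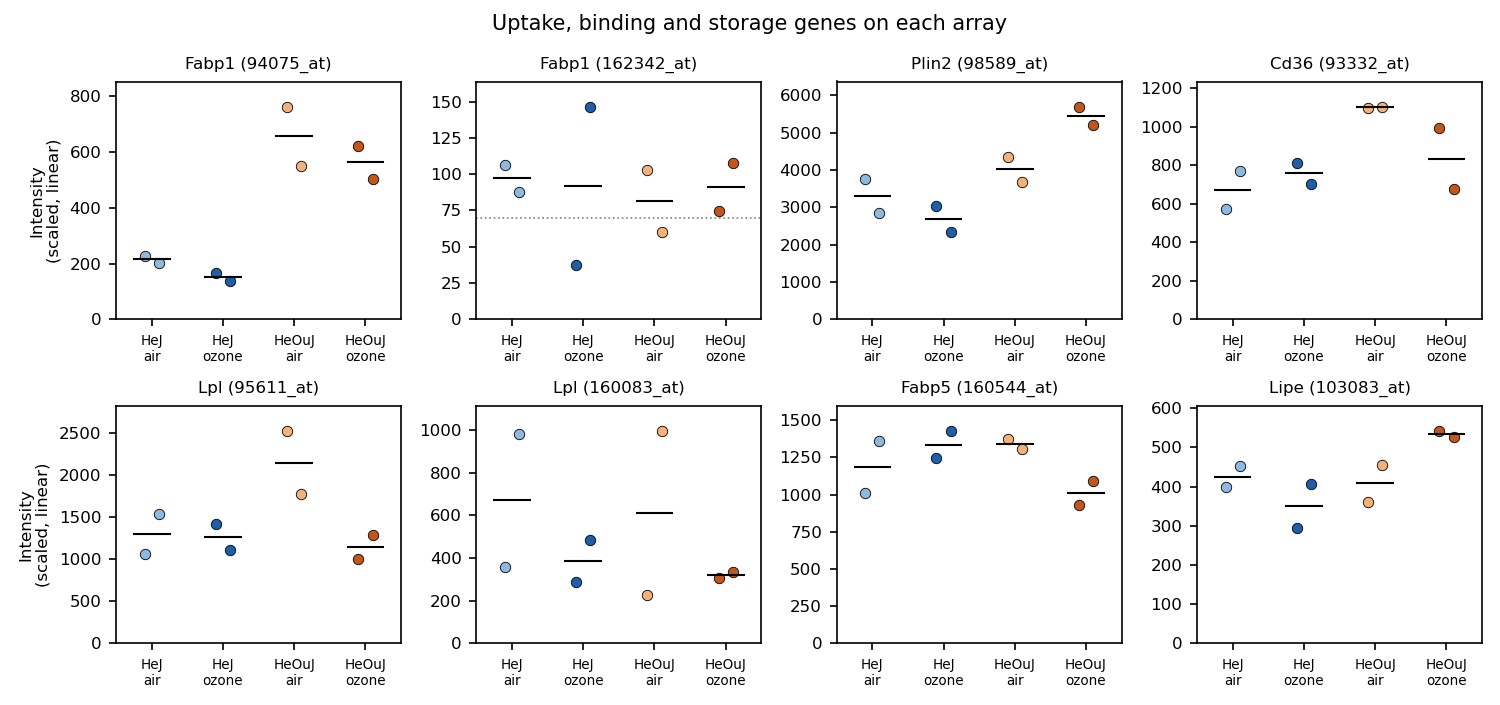
Scaled intensity (linear axes from 0) of uptake, binding and storage genes on each of the 8 arrays by group; points are arrays 1a and 1b, lines are group means, and the dotted line where shown is the floor of 69.6. The first panel's probe set of Fabp1 is at 504 or more on all C3H/HeOuJ arrays and at 227 or less on all C3H/HeJ arrays, and Plin2 is highest on the HeOuJ ozone arrays.

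**Figure D3:**
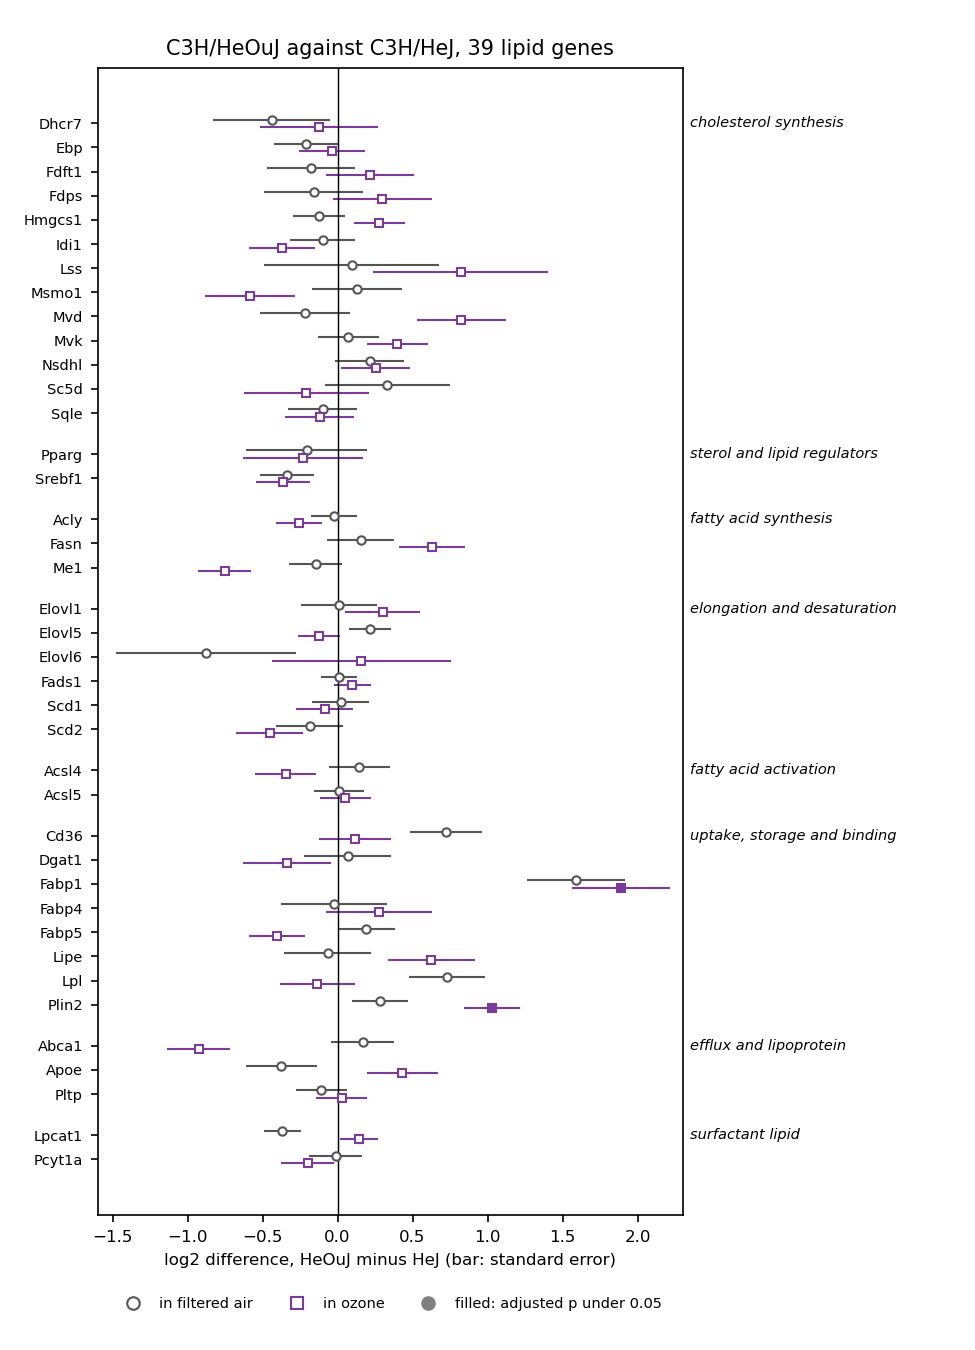
Log2 difference of C3H/HeOuJ minus C3H/HeJ for the 39 tested lipid genes (rows, by role), each from its brightest probe set, in filtered air (circles) and in ozone (squares); bars are standard errors of the limma model. The filled squares are Fabp1 at 1.89 and Plin2 at 1.03, the members with an adjusted p under 0.05; Abca1 at -0.93 lies farthest below 0 in ozone.

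Cholesterol synthesis was read by 20 probe sets of 13 member genes. In C3H/HeOuJ, 9 of the 13 were above 0 for ozone with a median of 0.20. At an unadjusted p under 0.05, 3 of the 20 probe sets were higher, as were 7.77% of all probe sets, and 1 was lower, as were 7.73% of all. In C3H/HeJ 9 of 13 were above 0 too, with a median of 0.06 and no probe set at an unadjusted p under 0.05. None passed the adjusted threshold in either strain, as given above for all members. In HeOuJ ozone the actin ratio and the first principal component stood apart as well. Values with the actin ratio as a covariate stand beside Hmgcs1 and Nsdhl, and for Mvd that value lies within the range given there. The part of the component was not tested.

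Hmgcs1, which makes HMG-CoA from acetyl units and holds the sterol motif printed above, read 1988 and 1617 in HeJ air, 1926 and 1811 in HeJ ozone, 1669.6 and 1624 in HeOuJ air and 2612 and 1968 in HeOuJ ozone. HeOuJ ozone was above HeOuJ air without overlap, at 0.46 (SE 0.17) (adjusted p = 0.253), and 1 HeOuJ ozone array lay within the range of the HeJ arrays. The C3H/HeOuJ value was 0.26 without HeOuJ ozone 1a and 0.01 with the actin ratio as a covariate. Mvd makes isopentenyl diphosphate, the building block of sterols, and had the largest ozone difference of the members. Mvd read 286 and 285 in HeJ air, 279.8 and 340.2 in HeJ ozone, 257 and 235 in HeOuJ air and 580.4 and 515 in HeOuJ ozone. Both HeOuJ ozone arrays were above every other array, with a C3H/HeOuJ difference of 1.15 (SE 0.30), or 2.23-fold, which missed the threshold (adjusted p = 0.131). In C3H/HeJ the difference was 0.11 (SE 0.30), and the interaction was 1.04 (SE 0.42) (adjusted p = 0.408). The C3H/HeOuJ value stayed between 0.99 and 1.24 in each alternative tried, the actin covariate among them. With no single array left out, it passed the threshold in 0 of 12 alternatives. The promoter window of Mvd held neither motif.

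Nsdhl helps to remove methyl groups from the sterol ring and separated the arrays by strain. Its dimmest probe set read 354 and 323 in HeJ air, 375 and 333 in HeJ ozone, 449 and 503 in HeOuJ air and 541 and 519 in HeOuJ ozone. All C3H/HeOuJ arrays were above all C3H/HeJ arrays, with a mean strain difference of 0.54 (SE 0.18) (adjusted p = 0.273). The other 2 probe sets gave 0.40 (SE 0.19) and 0.23 (SE 0.16), in the same direction. With the actin ratio as a covariate the 3 values were 0.35, -0.09 and 0.90.

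The other enzymes differed in sign. Fdps, which joins isoprene units into farnesyl diphosphate, had 4 probe sets with ozone differences in C3H/HeOuJ of 0.75, 0.57, -0.06 and -0.44; both bright ones were above 0, and both dim ones were below it. Msmo1, a methyl sterol oxidase, read 396 and 551 in HeJ air, 519.8 and 410.3 in HeJ ozone, 537 and 486 in HeOuJ air and 349.8 and 271 in HeOuJ ozone. Its HeOuJ ozone arrays were the lowest of the 8, at -0.73 (SE 0.30) against air (adjusted p = 0.294), opposite in sign to Mvd. Sqle, the squalene epoxidase, gave 0.01 (SE 0.23) in C3H/HeJ and -0.01 (SE 0.23) in C3H/HeOuJ. For Sqle in C3H/HeOuJ the 95% interval ran from -0.54 to 0.51. Fdft1, Lss, Ebp and Dhcr7 gave 0.30, 0.91, 0.35 and 0.20 in C3H/HeOuJ, and Idi1 and Sc5d gave -0.11 and -0.31 (the brighter of the Sc5d probe sets), with standard errors of 0.22 to 0.58. Mvk, the mevalonate kinase, gave 0.12 (SE 0.20) from its bright probe set. Its dim probe set entered the test only because both HeOuJ ozone arrays, at 92.9 and 114, were above the floor.

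**Figure D4:**
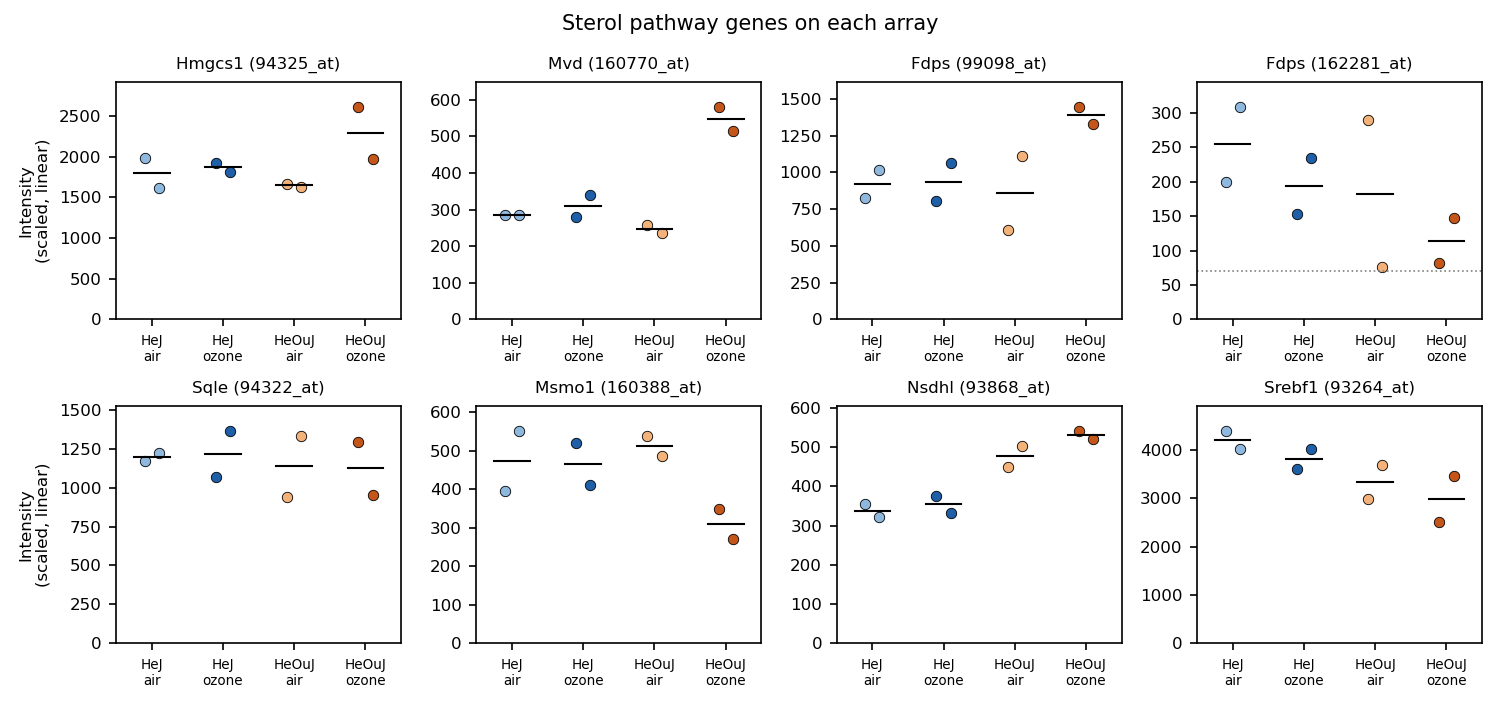
Scaled intensity (linear axes from 0) of sterol pathway genes and of Srebf1 on each of the 8 arrays by group; points are arrays 1a and 1b, lines are group means, and the dotted line where shown is the floor of 69.6. Mvd is highest and Msmo1 lowest on the HeOuJ ozone arrays, and the bright (left) and dim (right) probe sets of Fdps differ in direction.

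Of the regulators, Srebf1 and Pparg were tested. Srebf1 encodes the SREBP that drives fatty acid synthesis, and read 4396 and 4013 in HeJ air, 3601 and 4015 in HeJ ozone, 2994 and 3681 in HeOuJ air and 2522 and 3465 in HeOuJ ozone. Within each exposure C3H/HeOuJ was below C3H/HeJ without overlap, over both exposures the strains overlapped, and the mean strain difference was -0.35 (SE 0.13) (adjusted p = 0.292). Its ozone differences were -0.14 (SE 0.18) in C3H/HeJ and -0.17 (SE 0.18) in C3H/HeOuJ. Pparg, the nuclear receptor that fits macrophages and fat cells to handle lipid, read 271 and 193 in HeJ air, 215 and 249.7 in HeJ ozone, 247 and 159 in HeOuJ air and 166 and 235 in HeOuJ ozone. The groups overlapped, with ozone differences of 0.02 (SE 0.40) and -0.01 (SE 0.40). The 95% interval of Pparg in C3H/HeOuJ ran from -0.92 to 0.91, and a difference within it was not detectable.

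Fatty acid synthesis was read in 3 genes, and 1 of the 3 was above 0 for ozone in each strain. Me1, the malic enzyme that supplies NADPH, read 1871 and 2314 in HeJ air, 2919 and 2741 in HeJ ozone, 1814 and 1954 in HeOuJ air and 1442 and 1953 in HeOuJ ozone. HeJ ozone was highest and did not overlap any other group. The ozone difference was 0.44 (SE 0.18) in C3H/HeJ, the only member there at an unadjusted p under 0.05 (adjusted p = 1), and -0.17 (SE 0.18) in C3H/HeOuJ. The strain difference in ozone was -0.75 (SE 0.18) (adjusted p = 0.0832), and 0.15 with the actin ratio as a covariate.

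Fasn, the fatty acid synthase, ran the other way between strains and read 2521 and 3045 in HeJ air, 1979 and 3209.9 in HeJ ozone, 2961 and 3206 in HeOuJ air and 3620.4 and 4216 in HeOuJ ozone. Its HeOuJ ozone arrays were the highest, with a strain difference in ozone of 0.63 (SE 0.22) (adjusted p = 0.188), which was 0.28 without HeJ ozone 1a. Acly, which makes cytosolic acetyl-CoA from citrate, read 3267 and 4249.8 in HeJ air, 3537 and 3551 in HeJ ozone, 3723 and 3611 in HeOuJ air and 2751 and 3194 in HeOuJ ozone. HeOuJ ozone was lowest without overlap, at -0.31 (SE 0.15) against air (adjusted p = 0.375), a value that turned to 0.29 with the covariate.

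Elongation and desaturation was read by 10 probe sets of 6 genes, none of them at an unadjusted p under 0.05 for ozone in either strain. Scd1, a stearoyl-CoA desaturase, was bright in 2 of its 3 probe sets. The first read 27081 and 24030.5 in HeJ air, 30985 and 27212 in HeJ ozone, 26148 and 25629 in HeOuJ air and 29260.2 and 25571 in HeOuJ ozone, with ozone differences of 0.19 (SE 0.19) and 0.08 (SE 0.19); HeJ ozone lay just above HeJ air, and the C3H/HeOuJ groups overlapped. The second read 30129.7 and 30977 in HeJ air, 30053 and 20103 in HeJ ozone, 27274 and 26247 in HeOuJ air and 12231 and 30047 in HeOuJ ozone. Array HeOuJ ozone 1a was low there, while 1b was not, and the first probe set showed no such drop. The dim remaining one read 110.3 and 51.2 in HeJ air, 111 and 63.4 in HeJ ozone, 141 and 79.0 in HeOuJ air and 165 and 133 in HeOuJ ozone, with a strain difference in ozone of 0.75 (SE 0.42).

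Scd2, the desaturase paralog, read 9814 and 9586 in HeJ air, 9355 and 10113 in HeJ ozone, 7041 and 10326 in HeOuJ air and 8527 and 5924 in HeOuJ ozone on its brighter probe set. On the other it read 7469.8 and 6857 in HeJ air, 7086 and 8458 in HeJ ozone, 7531 and 7863 in HeOuJ air and 6463 and 9400.2 in HeOuJ ozone. In ozone C3H/HeOuJ was below C3H/HeJ on the first and overlapped it on the second, with strain differences of -0.45 (SE 0.22) and 0.01 (SE 0.19). The deposited values could not show how far these paralogs share signal.

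Elovl6, the elongase that turns palmitate into stearate, was dim. The brighter of its probe sets read 94.0 and 174 in HeJ air, 122 and 126 in HeJ ozone, 32.2 and 22.8 in HeOuJ air and 276 and 67.8 in HeOuJ ozone. Both HeOuJ air arrays and HeOuJ ozone 1b were under the floor, so the fitted difference in C3H/HeOuJ, 0.99 (SE 0.60), rested on HeOuJ ozone 1a alone and missed the threshold (adjusted p = 0.464). The other read 14.5 and 169 in HeJ air, 97.8 and 114 in HeJ ozone, 27.2 and 66.9 in HeOuJ air and 20.8 and 66.5 in HeOuJ ozone. There every C3H/HeOuJ array and HeJ air 1a were under the floor, and the probe set entered the test only through the other 3 C3H/HeJ arrays. The fitted mean strain difference, -0.62 (SE 0.29), depends on the floor. Elovl1, Elovl5 and Fads1 gave ozone differences of -0.08 (SE 0.25), 0.11 (SE 0.14) and -0.05 (SE 0.12) in C3H/HeJ. In C3H/HeOuJ they gave 0.21 (SE 0.25), -0.23 (SE 0.14) and 0.03 (SE 0.12). The Fads1 interval in C3H/HeOuJ, -0.25 to 0.31, was among the narrowest of the members.

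Fatty acid activation was read in Acsl4 and Acsl5, which couple fatty acids to CoA. The brighter Acsl4 probe set read 1915 and 2287 in HeJ air, 2706 and 2256 in HeJ ozone, 2292 and 2340.0 in HeOuJ air and 2378 and 1589 in HeOuJ ozone. The dimmer read 185 and 173 in HeJ air, 207 and 103 in HeJ ozone, 377 and 195 in HeOuJ air and 374 and 316 in HeOuJ ozone. Their mean strain differences were -0.10 (SE 0.14) and 0.92 (SE 0.33) (adjusted p of the latter = 0.292), so the 2 probe sets of the gene differed in sign. Acsl5 read 3212 and 2728 in HeJ air, 3129.6 and 3025 in HeJ ozone, 2772 and 3210.3 in HeOuJ air and 2762 and 3683 in HeOuJ ozone. Its groups overlapped, with ozone differences of 0.06 (SE 0.17) and 0.10 (SE 0.17).

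Abca1 moves cholesterol and phospholipid out of macrophages onto apolipoprotein A-I. Its bright probe set read 1044 and 1567 in HeJ air, 1808 and 1563 in HeJ ozone, 1389 and 1489 in HeOuJ air and 955 and 819 in HeOuJ ozone. Both HeOuJ ozone arrays were below every other array. The ozone difference was -0.70 (SE 0.21) in C3H/HeOuJ and 0.39 (SE 0.21) in C3H/HeJ, with an interaction of -1.09 (SE 0.30) (adjusted p = 0.241), the smallest adjusted p of the members there. The strain difference in ozone was -0.93 (SE 0.21) (adjusted p = 0.0751). It passed at 0.05 where the test was limited to probe sets above the floor on all 8 arrays (adjusted p = 0.0456), and with the actin ratio as a covariate it turned to 0.59. The dimmer probe set read 437 and 239 in HeJ air, 303 and 229.9 in HeJ ozone, 491 and 311 in HeOuJ air and 538 and 336 in HeOuJ ozone, and its strain difference in ozone was 0.69 (SE 0.43), opposite in sign.

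Apoe, the lipoprotein ligand that macrophages secrete, read 13996 and 9600.0 in HeJ air, 10022 and 7682 in HeJ ozone, 10039 and 7946 in HeOuJ air and 10459 and 13409 in HeOuJ ozone. In C3H/HeJ ozone and air overlapped, in C3H/HeOuJ ozone was above air, and the interaction was 0.81 (SE 0.33) (adjusted p = 0.415), or 0.54 without HeJ air 1a. Pltp, the phospholipid transfer protein, read 10651 and 9844 in HeJ air, 8559 and 8963 in HeJ ozone, 8282 and 10904 in HeOuJ air and 9682 and 8235 in HeOuJ ozone. Its ozone differences were -0.23 (SE 0.17) and -0.09 (SE 0.17), and only in C3H/HeJ did ozone and air not overlap.

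Of the surfactant lipid enzymes tested, Lpcat1, which remodels phosphatidylcholine to its saturated surfactant form, read 3686 and 3643 in HeJ air, 3358 and 2899 in HeJ ozone, 2739 and 2943 in HeOuJ air and 3466 and 3424 in HeOuJ ozone. HeJ ozone was below HeJ air, and HeOuJ ozone was above HeOuJ air, both without overlap. The differences were -0.23 (SE 0.12) and 0.28 (SE 0.12), and the interaction was 0.51 (SE 0.18) (adjusted p = 0.337). In air C3H/HeOuJ was below C3H/HeJ at -0.37 (SE 0.12) (adjusted p = 0.782).

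Pcyt1a makes CDP-choline, the rate-limiting step of phosphatidylcholine synthesis. Its dimmer probe set read 387 and 253 in HeJ air, 386 and 295 in HeJ ozone, 482 and 419 in HeOuJ air and 571 and 579 in HeOuJ ozone. All C3H/HeOuJ arrays were above all C3H/HeJ arrays, with a mean strain difference of 0.65 (SE 0.22) (adjusted p = 0.274), which turned to -0.30 with the covariate. The brighter probe set read 905 and 1192 in HeJ air, 1143 and 1212 in HeJ ozone, 1027 and 1034 in HeOuJ air and 986 and 1067 in HeOuJ ozone, with a mean strain difference of -0.10 (SE 0.12), and the strains overlapped. Markers of alveolar type 2 cells, 5 genes without members, summed to 90203 to 113525 on the 6 arrays outside HeOuJ ozone and to 145292 and 136579 in HeOuJ ozone. That gap lay in Sftpc: without it the sum was 48341 to 56545 on the 6 arrays, and 44652 and 59080.3 in HeOuJ ozone. For ozone in C3H/HeOuJ 3 of the 5 were above 0, with a median of 0.03. Their part in the values of Lpcat1 and Pcyt1a was not tested.

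**Figure D5:**
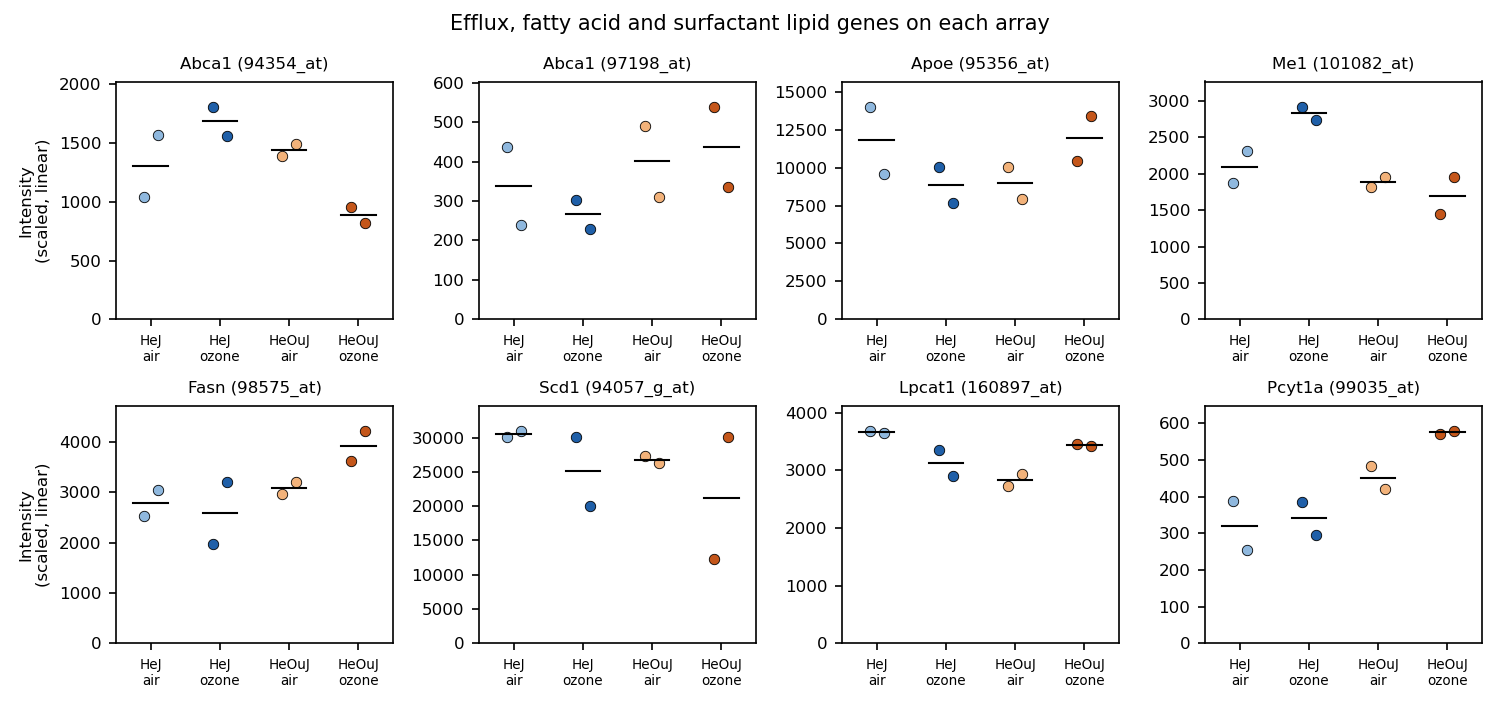
Scaled intensity (linear axes from 0) of efflux, fatty acid and surfactant lipid genes on each of the 8 arrays by group; points are arrays 1a and 1b and lines are group means. The brighter Abca1 probe set is lowest on the HeOuJ ozone arrays and Me1 highest on the HeJ ozone arrays, and 1 HeOuJ ozone array of Scd1 stands at 12231 apart from the other.

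Probe sets of 1 gene often went different ways. Of the 13 members with several tested probe sets, all probe sets had 1 sign in 8 for ozone in C3H/HeJ, in 5 for ozone in C3H/HeOuJ and in 4 for the strain difference in ozone. The groups did not overlap in 14 of 56 member probe sets for ozone in C3H/HeJ, where 34.4% of all probe sets did not. For ozone in C3H/HeOuJ they did not overlap in 21 of 56, against 41.8% of all. For the strain difference they did not overlap in 18 of 56 in air, against 32.7%, and in 31 of 56 in ozone, against 45.9%. No member probe set had all 4 ozone arrays on 1 side of all 4 air arrays, where 3.23% of all did.

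Neighbouring pathways were read from lists that hold no member, and none of their genes passed the threshold in any comparison. Of 13 other sterol genes, 7 were above 0 for ozone in C3H/HeOuJ, with a median of 0.02. They cover uptake, sensing and efflux, and also hold enzymes of synthesis that are not members, such as Cyp51 and Tm7sf2. Npc2, which carries cholesterol out of lysosomes, gave 0.68 (SE 0.19) there (adjusted p = 0.154). Lrp1, a receptor for lipoprotein remnants, gave -0.49 (SE 0.16) for ozone averaged over strains (adjusted p = 0.417). Of 20 other fatty acid and glycerolipid genes, 11 were above 0 for ozone in C3H/HeOuJ, with a median of 0.07. Hsd17b12, a reductase of fatty acid elongation, gave 0.78 (SE 0.17) (adjusted p = 0.0915). Gpam, which opens glycerolipid synthesis, had an interaction of -0.70 (SE 0.16) (adjusted p = 0.199).

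Fatty acid oxidation was tested in 21 of 22 listed genes on the array, 14 of them above 0 for ozone in C3H/HeOuJ with a median of 0.20, and 7 of 21 above 0 in C3H/HeJ with a median of -0.04. Echs1, the short-chain enoyl-CoA hydratase of mitochondria, read 1083 and 968 in HeJ air, 814 and 744 in HeJ ozone, 611 and 448 in HeOuJ air and 1114 and 1287 in HeOuJ ozone. HeOuJ air was the lowest group and HeOuJ ozone the highest, with a C3H/HeOuJ difference of 1.19 (SE 0.21) that missed the threshold (adjusted p = 0.0571). Etfa, an electron carrier of the pathway, gave 0.54 (SE 0.18) (adjusted p = 0.221).

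Of 14 other surfactant and phospholipid genes, 7 were above 0 for ozone in C3H/HeOuJ, with a median of -0.03. Ctsh, the cathepsin that trims surfactant proteins, read 4439 and 4295 in HeJ air, 4685 and 4371 in HeJ ozone, 4486 and 4701 in HeOuJ air and 7059 and 6888 in HeOuJ ozone. Its HeOuJ ozone arrays were above all others, at 0.60 (SE 0.12) against air (adjusted p = 0.0695) and 0.62 (SE 0.12) against HeJ ozone (adjusted p = 0.0539). Sftpc read 56980.4 and 45718 in HeJ air, 49802 and 45561 in HeJ ozone, 55299 and 39537 in HeOuJ air and 100639 and 77498 in HeOuJ ozone. It too was highest in HeOuJ ozone, at 0.92 (SE 0.29) against air (adjusted p = 0.19), and neither gene passed.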

How the data were processed

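RNA of whole lung from 4 groups of 2 arrays was compared. The deposited values are linear, scaled intensity readings, 1 for every probe set on every array; their 2% trimmed mean was 800.39 to 800.41 throughout. The sources used here do not name the software of the authors. After 66 controls of 12488 probe sets were removed, the platform annotation gave 10833 probe sets a single gene, 396 more than 1 gene, and 1193 no gene.

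Intensities under the 20th percentile (69.6, or 6.12 in log2) were raised to it before log2 was taken. Probe sets that exceeded this floor on 2 or more arrays (10953) were tested, and 1469 were left out. One limma fit (version 3.58.1, R 4.3.3) held the means of the 4 groups, with contrasts for 7 comparisons and an intensity trend in eBayes; it had 4 residual and 4.54 prior degrees of freedom. P-values were adjusted by Benjamini-Hochberg. The fit was tested on simulated data. The number of arrays limits the precision.

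Values on every array are given for members past the threshold and for the 3 of smallest unadjusted p in each role; in the neighbouring lists, the 2 of smallest p for ozone or interaction are named. Array values of Cd36 and Msmo1, the marker genes, and single values of other members were chosen after they were seen. The members and lists were chosen with earlier results of these data known. Alternatives covered the scaling, the floor and filter, the model of the variance, which arrays entered, an RNA quality covariate and the replicate letters. Figures used matplotlib 3.10.9, pandas 2.3.3 and Python 3.11.15.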

Additional observations from a re-analysis of the deposited data

How the results depend on the processing

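No lipid gene passed for ozone in either strain, for ozone averaged, in the interaction or in the strain difference in air under any alternative tried. The strain difference in ozone, with 2 members past the threshold, had 1 with quantile normalisation and 1 with median centring. It had 0 without the filter on dim probe sets, 0 without the intensity trend, 0 with only the 4 arrays of the comparison, 0 with the actin 5' to 3' ratio as a covariate, 0 with array weights, 4 at an adjusted p of 0.10 (Fabp1, Plin2, Abca1 and Me1), 3 with only probe sets above the floor on all 8 arrays (Abca1 joined), and 0 to 0 with each array left out in turn. The averaged strain difference, with 1, had 0 without the filter, 0 with the covariate and 0 to 0 with an array left out. With the replicate block, which takes the letters a and b as pairs, it had 2, as Plin2 joined at adjusted p = 0.0457; no other call changed. The labels do not say what the letters share. Deviations of same-letter arrays correlated at -0.010 to 0.138 over the 6 pairs of groups, over 0.1 in 3 of them. The first principal component and the Gapdh 5' to 3' ratio were higher on 1a than on 1b in all 4 groups. The main fit did not take the letters as pairs, and these values do not settle whether they are. The median difference of the 39 genes moved with the covariate to 0.168 (ozone in C3H/HeOuJ), 0.164 (ozone averaged), 0.343 (strain in ozone) and 0.243 (strain averaged). The covariate's slope rests mainly on the HeJ air pair, so these medians cannot be read as corrected for RNA quality. With an array left out the median difference ran from -0.057 to 0.107 for ozone in C3H/HeJ, -0.063 to 0.157 for the interaction, -0.104 to 0.058 for strain in air, -0.072 to 0.145 for strain in ozone and -0.058 to 0.045 for strain averaged. Over the alternatives that kept probe sets apart and the threshold at 0.05, there were 4406 values of 21 named genes. Of these, 4039 kept their direction and their side of the threshold. A further 327, none of them past the threshold in the main fit, changed sign. Of the rest, 38 lost a call and 2 gained one, and no called value changed sign. A call could be lost only by the strain differences of Fabp1 and Plin2 in ozone and of Fabp1 averaged over exposures. With no single array left out, these kept it in 7 of 12, 5 of 12 and 9 of 11 alternatives. Leaving out both HeOuJ ozone arrays, chosen after the data were seen, gave 1.59 for Fabp1 in air (adjusted p = 0.391).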
